A study of Petunia x hybrida with 10 samples.

Results

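Core m1A regions are the stretches of the petunia genome where most of the 6 m1A libraries of the series placed a peak. Peaks of the 6 lists were merged wherever they shared 1 bp or more, which gave 36717 regions, and regions were selected on the presence of a peak in 4 or more of the 6 libraries. That left 1664 core regions, 4.53% of all regions, on 609 of the 1240 scaffolds that carried any region. Of these, 1158 held peaks of 4 libraries, 446 of 5 and 60 of all 6. Presence of peaks chose the regions, so their number, their make-up by library and the width and edges of the merged regions are described here without a test. Tests were kept to libraries that had no part in the choice, to the m6A-titled lists, and to differences between ethylene and air in the chosen regions.

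The tissue was corolla (petal tissue) of Petunia x hybrida cultivar Mitchell, a common laboratory line. The ethylene group (n = 3) was exposed to ethylene at 2 µl/l for 16 h, and the air group (n = 3) was kept in air for 16 h. Fragmented RNA was pulled down with a polyclonal antibody raised against m1A and sequenced, and the authors deposited 1 list of peaks per library. Whether a group's libraries came from different plants is not stated, so p-values measure only the spread between these libraries, which may be technical. The other 4 lists (n = 2 for ethylene and n = 2 for air) are titled m6A, but their protocol names the same anti-m1A antibody, so "m6A-titled" below refers to the title.

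N1-methyladenosine (m1A) is an adenosine with a methyl group on the edge of the base that pairs with uridine, so the mark blocks normal base pairing and gives the base a positive charge. It is a long-known mark of transfer and ribosomal RNA and has been mapped in messenger RNA with antibodies of the kind used here. Ethylene is the gaseous hormone known to hasten petal senescence in petunia and other flowers. Antibody peaks span whole RNA fragments and do not locate the modified base.

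The lists differed in length, and 2 of the 3 air lists were the longest. The ethylene libraries 1, 2 and 3 listed 7526, 1013 and 8059 peaks, and the air libraries 1, 2 and 3 listed 15593, 17573 and 6760. The ethylene 2 list was the shortest by a wide margin, and sequencing depth is not known for any library, because the lists give peaks without reads. Deeper sequencing and more modified RNA cannot be told apart as sources of a longer list, nor can more modified copies per transcript and more transcripts. Scaffold names begin with Peaxi162, and coordinates below are 1-based positions on those scaffolds. The lists carry no gene names or strand for m1A, so no region below is assigned to a gene, exon or UTR.

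The core was spread over both treatments, with the short ethylene 2 list contributing least. Ethylene 1, 2 and 3 had a peak in 1309, 290 and 1325 of the 1664 core regions, or 78.7, 17.4 and 79.6%. Air 1, 2 and 3 had a peak in 1498, 1549 and 1251, or 90.0, 93.1 and 75.2%. Ranking the 6 libraries by core regions occupied gave the same order as ranking them by list length. Core peaks made up a larger share of the shorter lists. They were 18.0, 29.0 and 17.0% of the peaks of ethylene 1, 2 and 3, and 9.91, 9.17 and 18.9% of those of air 1, 2 and 3.

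Because most core regions lacked ethylene 2, few could hold every ethylene library. A peak in all 3 ethylene libraries occurred in 134 core regions (8.05%), against 0.400% of all regions. A peak in all 3 air libraries occurred in 1002 (60.2%), against 4.06% of all regions. Both shares are set in part by the rule, since 4 of 6 libraries always include at least 1 of each treatment. The commonest make-up was 2 ethylene and 2 air libraries, in 588 regions (35.3%), followed by 1 ethylene and 3 air libraries in 538 (32.3%) and 2 ethylene and 3 air libraries in 404 (24.3%). Combinations with all 3 ethylene libraries were rarer, with 32 regions holding 1 air library, 42 holding 2 and 60 holding all 3.

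The single list that was missing most often was ethylene 2, absent from 1374 core regions (82.6%). In 351 of these it was the only absent library, and together with the 60 regions of all 6 libraries this made 411 regions (24.7%) found in every other list. Where ethylene 2 and 1 more list were absent, that second list was air 3 in 306 regions, ethylene 1 in 271, ethylene 3 in 253, air 1 in 114 and air 2 in 79. This order was again the reverse of list length. When ethylene 2 was left out of the merge altogether, 1529 regions held peaks of 4 or more of the remaining 5 libraries, so the core count changed little. Without any other library the count fell to between 600 and 895, with 834 without ethylene 1, 815 without ethylene 3, 648 without air 1, 600 without air 2 and 895 without air 3.

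Whether recurrence carries over to a list that took no part in choosing the regions was tested by holding out each library in turn. The other 5 lists were merged, and the regions with peaks of 4 or more of these 5 were compared with the regions of exactly 1 of them. The held-out library had a peak in 57.4, 10.1 and 58.4% of the recurrent regions for ethylene 1, 2 and 3, and in 74.4, 80.8 and 53.9% for air 1, 2 and 3. In the single-library regions the same shares were 8.87, 0.935 and 9.74% for ethylene 1, 2 and 3, and 21.8, 24.9 and 8.11% for air 1, 2 and 3. The share was higher in the recurrent regions in 6 of 6 libraries, by a mean of 43.4 percentage points (exact two-sided sign-flip permutation over 6 libraries, p = 0.03125, the smallest that 6 libraries allow). After Benjamini-Hochberg adjustment over all 11 tests made here, this exact permutation p was 0.172, which does not pass 0.05. The 6 values share libraries and are not fully independent.

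Detection climbed with each further library, also for the shortest list. Ethylene 2 had a peak in 0.935, 1.94, 4.50, 8.50 and 14.6% of the regions held by 1, 2, 3, 4 and all 5 of the other libraries. For air 2, the longest list, the shares were 24.9, 44.6, 61.9, 79.5 and 92.1%. The short and the long list thus followed the same upward order at very different levels. Wide regions offer more room for a peak, so detection was also scored only where a held-out peak lay over the midpoint of the region. By that score the recurrent regions exceeded the single-library regions by 36.4 percentage points.

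**Figure D1:**
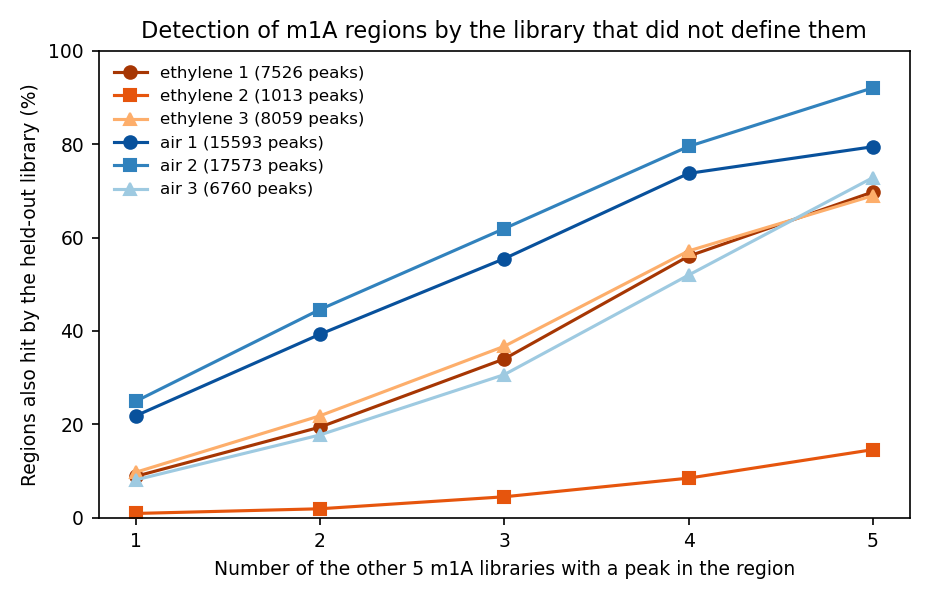
Share of regions (%, vertical axis) in which a held-out m1A library had a peak, against the number of the other 5 libraries with a peak there (horizontal axis), with 1 line per library. All 6 lines climb, from 0.935% to 14.6% for ethylene 2 and from 24.9% to 92.1% for air 2.

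Held-out detection was lower on average for ethylene libraries, but not beyond the spread between libraries. Each library was scored on its own set of recurrent regions, numbering 834, 1529 and 815 for ethylene 1, 2 and 3. The sets for air 1, 2 and 3 numbered 648, 600 and 895. Sets for ethylene libraries came from 2 ethylene and 3 air lists, and those for air libraries from 3 ethylene and 2 air lists. Treatment and the make-up of the defining lists therefore cannot be told apart here. Ethylene libraries found 42.0 ± 27.6% of their recurrent regions and air libraries 69.7 ± 14.1% of theirs (SD, n = 3 each). The groups overlapped, because ethylene 1 and 3 lay above air 3. The difference of −27.7 percentage points had an exact two-sided permutation p of 0.3 (adjusted p 0.471), where 3 against 3 libraries cannot go below 0.1. Without ethylene 2 the difference was −14.1 percentage points, with recurrent regions then defined by 3 or more of the remaining lists.

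Core regions were broad. Their median width was 366 bp, with quartiles of 195 and 619.5 bp and a range of 28 to 3736 bp, and together they covered 800.881 kb of the 7097.52 kb in all regions. The median was 338 bp for regions of 4 libraries, 414.5 bp for 5 and 486 bp for 6, against 139 bp for regions outside the core and 114 bp for regions of 1 library. Just outside the limit, the 3014 regions of 3 libraries had a median of 261 bp. Merging more peaks widens a region by itself, so these merged widths are a description only.

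The stretch that the libraries of a core region had in common was much narrower than the region. A median of 136 bp was covered by every library with a peak there. Taken region by region as a share of the width, the median was 46.0%. In 219 core regions (13.2%) no base was shared by all of their libraries, so the region was a chain of partly overlapping peaks. In 164 core regions no base lay in peaks of 4 libraries.

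Single peaks avoid the widening by merging, and they too were wider at recurrent sites in lists that had not chosen them. The median width of held-out peaks touching a region of 4 or more of the other 5 libraries was 270.5, 194 and 288.5 bp in ethylene 1, 2 and 3, and 326, 314 and 276 bp in air 1, 2 and 3. All other peaks of the same lists had medians of 147, 125.5 and 153 bp in ethylene 1, 2 and 3, and 154, 153 and 148 bp in air 1, 2 and 3. Peaks at recurrent regions were wider in 6 of 6 libraries, by a mean of 131 bp (exact two-sided sign-flip permutation, p = 0.03125, adjusted p 0.172). A wide peak touches more regions by position alone, and what part of the difference this gives was not tested.

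**Figure D2:**
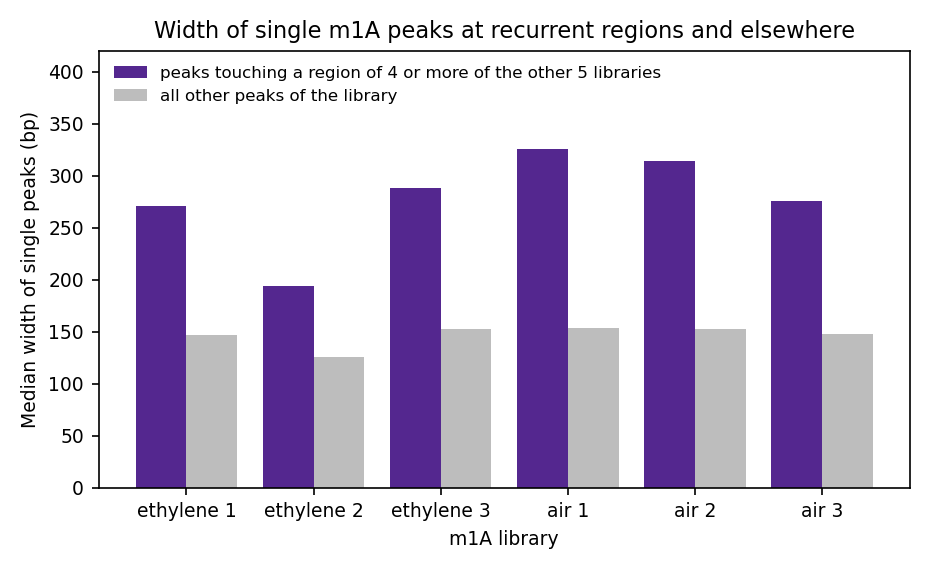
Median width of single peaks (bp, vertical axis) in each m1A library, for peaks that touch a region of 4 or more of the other 5 libraries (dark bars) and for all other peaks of that library (light bars). Dark bars run from 194 to 326 bp and light bars from 125.5 to 154 bp.

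Width was shared between libraries region by region. For each pair of libraries, the bases covered in core regions occupied by both were ranked and compared. Spearman's rho was 0.664 to 0.816 over the 15 pairs, with a median of 0.722, across 183 to 1389 regions per pair. Regions are not independent replicates, and both values of a pair come from the same merged region.

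In the same regions, ethylene peaks covered fewer bases on average without leaving the spread between libraries. In the 60 regions of all 6 libraries the median covered length was 354.5, 217 and 377 bp in ethylene 1, 2 and 3, against 413.5, 428.5 and 346.5 bp in air 1, 2 and 3. The means were 316 ± 86.6 bp for ethylene and 396 ± 43.7 bp for air (SD, n = 3 each), a difference of −80 bp (exact two-sided permutation p = 0.3, adjusted p 0.471). The same peaks chose these regions and gave the covered lengths, so this p-value is not independent of the choice. Ethylene 3 lay above air 3, so the groups overlapped, and without ethylene 2 the difference was −30.4 bp. In the 411 regions held by the 5 libraries other than ethylene 2, the medians were 280 bp in ethylene 1 and 291 bp in ethylene 3, against 341, 336 and 278 bp in air 1, 2 and 3.

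Most core regions held exactly 1 peak per library. The total was 4 peaks in 1072 regions (64.4%), 5 in 447 and 6 in 104, and the highest was 12 in a single region. More than 1 peak of a library was found in 159 core regions (9.56%), against 0.730% of all regions, most of which hold a single peak by definition. Of the 159, 107 were split in 1 library and 52 in 2 or more, with 3 split in 4 or more. Split core regions were long, with a median width of 1143 bp against 322 bp for the other core regions. A split region spans separate peaks of 1 library joined by peaks of others, so its width follows in part from the definition.

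The number of peaks per occupied core region hardly varied. It was 1.037, 1.014 and 1.037 in ethylene 1, 2 and 3, and 1.031, 1.041 and 1.024 in air 1, 2 and 3. The ranges of the treatments overlapped, and the difference of −0.00286 peaks per region had an exact two-sided permutation p of 0.8 (adjusted p 0.88). The peaks counted here also chose the core regions, so this p-value is not independent of the choice. Air 2 had 2 peaks in 57 core regions and 3 or more in 3, while ethylene 2 had 2 peaks in 4 and never more.

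Peak edges fell on the same base in many libraries. Among the 1505 core regions with 1 peak in each of their libraries, all starts were identical in 512 (34.0%), against 42.2% of all regions of 2 or more libraries with 1 peak each. All ends were identical in 545 (36.2%), against 42.1%, and both edges in 181 (12.0%), against 14.9%. The comparison set is mostly regions of 2 libraries, in which fewer positions have to match. One edge was shared and the other was not in 331 regions with a common start and 364 with a common end, and neither edge was common in 629 (41.8%).

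Merged regions with shared edges were narrower, in part by construction, since edges that differ widen the merged region. The median width was 175 bp where both edges were common, 222 bp with a common start, 234 bp with a common end and 535 bp with neither. Where only the start was common, the ends spread over a median of 87 bp, and where only the end was common, the starts spread over 76 bp. With neither edge common, the medians were 177 bp for starts and 169 bp for ends. What part of the width differences these spreads give was not tested. In core regions of 4 libraries, start positions were mostly shared by all libraries or by none. Of the 1072 core regions with 1 peak of each of 4 libraries, 357 had all 4 starts at a single base and 356 had 4 different starts. Fewer lay between, with 170 sharing a start in pairs at most and 189 in 3 libraries. Among the 384 such regions of 5 libraries, all starts were identical in 137 and all different in 97. Among the 49 of 6 libraries these counts were 18 and 6, so the pattern was weaker there.

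Counted by pairs of libraries, a fully identical peak was found in a larger share of core regions than of regions of 2 or 3 libraries in 13 of 15 pairs. Both edges matched in a mean of 20.8% (8.61 to 31.6% over pairs) of core regions and in 16.2% (9.93 to 22.0%) of the others. Both exceptions involved ethylene 2, paired with ethylene 1 and with air 3. Taken singly, starts and ends differed less. The start was the same in a mean of 45.4% of core regions and 43.9% of the others, higher in the core in 12 of 15 pairs, and the end in 45.7 and 44.9%, higher in 11 of 15.

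In the 10 pairs without ethylene 2, a choice made after the values were seen, core regions had the higher share in 10 of 10 pairs for each of the 3 measures. Both edges then matched in 24.6% (21.1 to 31.6%) of core regions and in 17.5% (16.0 to 20.3%) of the others. Pairs share libraries and the core was chosen by overlap of the same peaks, so no test was made. Within the core, both edges matched in a mean of 17.2% between ethylene libraries, 20.3% between treatments and 26.0% between air libraries. Without ethylene 2 the value was 24.0% for the single ethylene pair and 24.0% between treatments.

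**Figure D3:**
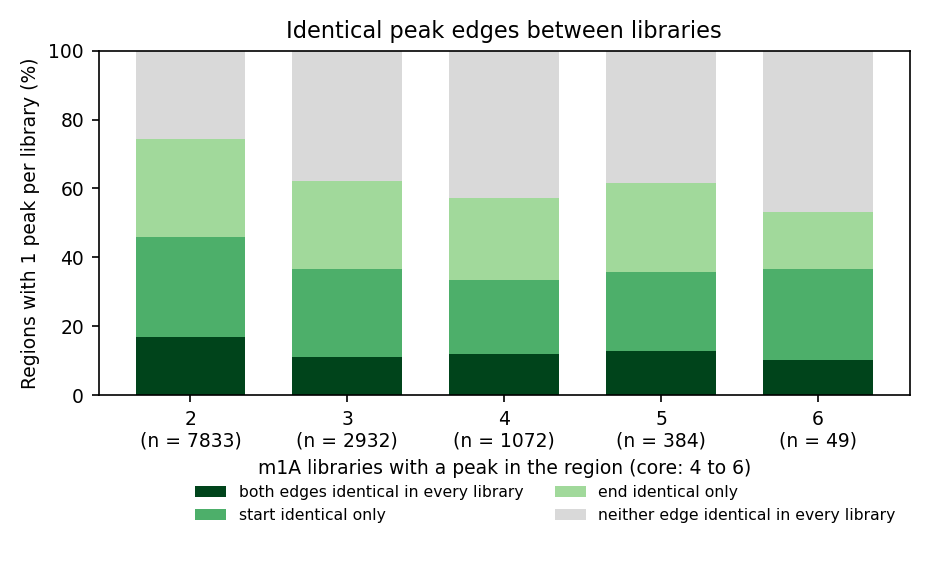
Share of regions with 1 peak per library (%, vertical axis) by which edges were identical in every library, for regions of 2 to 6 libraries (horizontal axis, core from 4). In the core, both edges were identical in 11.8% of regions of 4 libraries, 12.8% of 5 and 10.2% of 6.

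The 5 core regions in which all 6 libraries placed exactly the same peak were 143 to 361 bp wide. They lay on Peaxi162Scf00128 823249 to 823391 (143 bp), Peaxi162Scf00170 902328 to 902515 (188 bp), Peaxi162Scf00373 790678 to 790891 (214 bp), Peaxi162Scf00007 422989 to 423292 (304 bp) and Peaxi162Scf00401 141666 to 142026 (361 bp). Their coordinates matched to the base although their scores did not. On Peaxi162Scf00007 the score was 3100 in ethylene 1, 2 and 3, and 385.46, 3100 and 3100 in air 1, 2 and 3. On Peaxi162Scf00373 it was 3100, 505.03 and 3100 in ethylene 1, 2 and 3, and 3100 in all 3 air libraries. A single list therefore set the low score in each of these 2 regions, air 1 in the first and ethylene 2 in the second.

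The region with the most bases covered by all 6 libraries was Peaxi162Scf00401 163702 to 164631, which was 930 bp wide with 562 bp in common. Its peaks were 870, 562 and 867 bp wide in ethylene 1, 2 and 3, and 892, 921 and 930 bp in air 1, 2 and 3. The ethylene 2 peak lay wholly inside the other 5. Its mean within-list score percentile, 25.3, was the lowest of the 60 regions of all 6 libraries. The scores were 3100, 1530.53 and 620.4 in ethylene 1, 2 and 3, and 848.83, 629.38 and 264.28 in air 1, 2 and 3. The exact peak on the same scaffold, 141666 to 142026 is a separate core region.

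The next region by shared bases, Peaxi162Scf00451 424085 to 424852, had 546 bp in common and a score of 3100 in every library. Peaks there were 768, 546 and 757 bp wide in ethylene 1, 2 and 3, and 768, 768 and 748 bp in air 1, 2 and 3. All but ethylene 2 began at the same base. On Peaxi162Scf01108 213720 to 214269 all 6 peaks began at the same base, and all but ethylene 2 (385 bp) were 550 bp wide. On Peaxi162Scf00075 1782108 to 1782809, 5 libraries shared the start and ethylene 1 began 5 bp later, while all 6 ends differed. In these 3 regions, and in the 930 bp region on Peaxi162Scf00401, ethylene 2 had the shortest peak.

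A further pair of the widely shared regions differed in their ends or their scores. On Peaxi162Scf00274 482735 to 483992, peaks were 542, 445 and 1071 bp wide in ethylene 1, 2 and 3, and 1258, 1117 and 1169 bp in air 1, 2 and 3. The 3 ethylene peaks were narrower than the 3 air peaks there, with ethylene 2 again the shortest, and 326 bp were common to all. On Peaxi162Scf00141 487707 to 488325, 5 libraries had a score of 3100, while air 3 had 125.2, which is at percentile 0.717 of its own list. The shortest peak there was also that of ethylene 2, at 422 bp.

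Among the low-scoring regions, Peaxi162Scf00043 2125223 to 2125548 had a single start in all 6 libraries and ends up to 256 bp apart. Peaks were 138, 197 and 326 bp wide in ethylene 1, 2 and 3, and 326, 326 and 70 bp in air 1, 2 and 3, so width did not separate the treatments. Of the 3 peaks of 326 bp, ethylene 3 had a score of 115.37, and air 1 and 2 had 1697.91 and 1572.47. The other low-scoring regions, Peaxi162Scf00038 1776950 to 1777969 and Peaxi162Scf00180 250303 to 251661, had peaks of all 6 libraries but no base common to all.

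The core regions with the most peaks were mosaics. Peaxi162Scf00198 864961 to 867810, 2850 bp wide, held 12 peaks, with 2, 1 and 3 in ethylene 1, 2 and 3 and 2 in each air library. All 6 libraries covered a 228 bp stretch, which was exactly the only peak of ethylene 2. Peaxi162Scf00016 3443634 to 3445034 held 10 peaks, with 3, 2 and 1 in ethylene 1, 2 and 3, and 1, 1 and 2 in air 1, 2 and 3. There, ethylene 1 had peaks of 275, 281 and 295 bp over a stretch that ethylene 3 and air 1 covered with single peaks of 1375 and 1353 bp. Peaxi162Scf00345 256270 to 258771 also held 10 peaks of all 6 libraries, yet no base was common to all.

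The other regions rich in peaks lacked at least 1 ethylene library. Peaxi162Scf00064 1440929 to 1444058, 3130 bp wide, had 2 peaks in ethylene 3 and 3, 3 and 2 in air 1, 2 and 3, with 55 bp common to these 4. Peaxi162Scf00656 41775 to 44275 held 9 peaks of 5 libraries, with none of ethylene 2, and 272 bp in common.

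**Figure D4:**
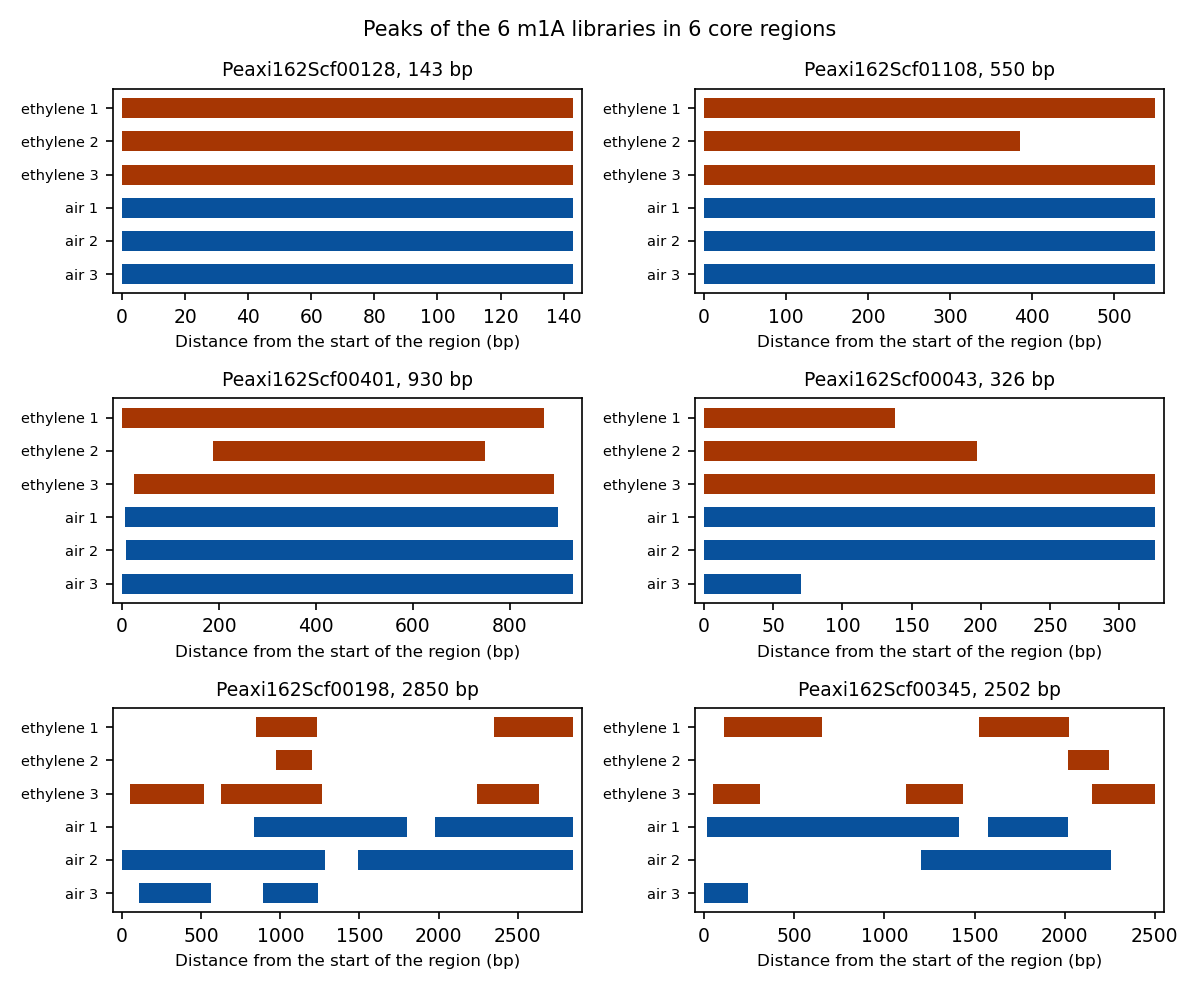
Peaks of the ethylene libraries (upper rows, red-brown) and air libraries (lower rows, blue) in 6 core regions, drawn as bars over the distance from the start of the region (bp). Bars coincide on Peaxi162Scf00128 (143 bp). On Peaxi162Scf00043 (326 bp) all share their start, and those of ethylene 3, air 1 and air 2 also share their end. Bars tile Peaxi162Scf00198 (2850 bp) and Peaxi162Scf00345 (2502 bp) in pieces.

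Score percentiles differed little between peaks at recurrent regions and other peaks. The score is the authors' value per peak, its scale is not given, and its commonest value was exactly 3100, so it was ranked only within each list. In held-out lists, the median percentile of peaks at recurrent regions exceeded that of other peaks by a mean of 5.07 points (exact two-sided sign-flip permutation, p = 0.5, adjusted p 0.688). In 4 of the 6 lists both medians sat on the common score and were equal, and most of the difference came from air 1, at 78.7 against 49.6. The mean percentile, added after the medians were seen, is less bound by such ties. It was 50.4, 52.8 and 51.4 at recurrent regions in ethylene 1, 2 and 3, and 56.5, 56.5 and 50.5 in air 1, 2 and 3. For other peaks it was between 49.5 and 49.97, so the gap was 3.20 points on average and had the same sign in 6 of 6 libraries.

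Within core regions, the score ranks of different libraries were nearly unrelated. Spearman's rho of the score percentiles was −0.102 to 0.151 over the 15 pairs of libraries, with a median of 0.0710, across the same 183 to 1389 regions per pair and with many ties at 3100. Every library stood at 3100 in 159 core regions (9.56%), against 41.0% of all regions, most of which have only 1 library to satisfy. No library was at 3100 in 78 (4.69%), against 39.1% of all regions, where again mostly 1 library counts. Core peaks at 3100 made up 38.6, 74.8 and 54.9% in ethylene 1, 2 and 3, and 43.2, 58.9 and 67.8% in air 1, 2 and 3. The corresponding shares for peaks outside the core were 42.5, 68.8 and 55.1% in ethylene and 38.8, 53.2 and 67.1% in air.

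The median percentile of core peaks was 46.5, 64.4 and 71.2 in ethylene 1, 2 and 3, and 52.5, 71.9 and 65.7 in air 1, 2 and 3. The treatments overlapped, and their means differed by −2.65 points (exact two-sided permutation p = 0.6, adjusted p 0.733). A list's ties at 3100 set most of these medians.

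On scaffolds with 2 or more core regions, gaps between neighbours ran from under 1 kb to over 100 kb. The core is 4.53% of all regions, so wide gaps follow in part from the rule, and no other set of that size was compared. The 1055 gaps between neighbouring core regions had a median of 73.8 kb, with quartiles of 8.49 and 241 kb and a shortest gap of 44 bp. A gap of at most 1 kb occurred 75 times (7.11%), of at most 5 kb 226 times (21.4%) and of at most 100 kb 591 times (56.0%). Chaining core regions at most 5 kb apart gave 204 groups of 2 or more with 430 core regions (25.8%), of which 185 were pairs, 16 were triplets and 3 held 4 regions.

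The 3 groups of 4 spanned 7.543 to 9.46 kb. On Peaxi162Scf00020 2289842 to 2297384, 4 core regions with 24 peaks lay within 7.543 kb, and the closest 2 were 44 bp apart. On Peaxi162Scf00209 32397 to 39991, 4 core regions with 19 peaks lay within 7.595 kb. On Peaxi162Scf00550 492310 to 501769, 4 core regions with 21 peaks lay within 9.46 kb, and 1 of them, 496178 to 497047, held all 6 libraries.

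By scaffold, 273 carried a single core region, 82 carried 5 or more and 21 carried 10 or more. Peaxi162Scf00016 had the most, with 33 core regions among its 504 regions (6.55%), followed by Peaxi162Scf00038 with 28 of 467 (6.0%) and Peaxi162Scf00128 with 20 of 318 (6.29%). The share over all scaffolds was 4.53%, and these 3 scaffolds also carry many regions of any kind. On Peaxi162Scf00016, ethylene 1, 2 and 3 had peaks in 26, 6 and 27 of the 33, and air 1, 2 and 3 in 30, 32 and 24.

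**Figure D5:**
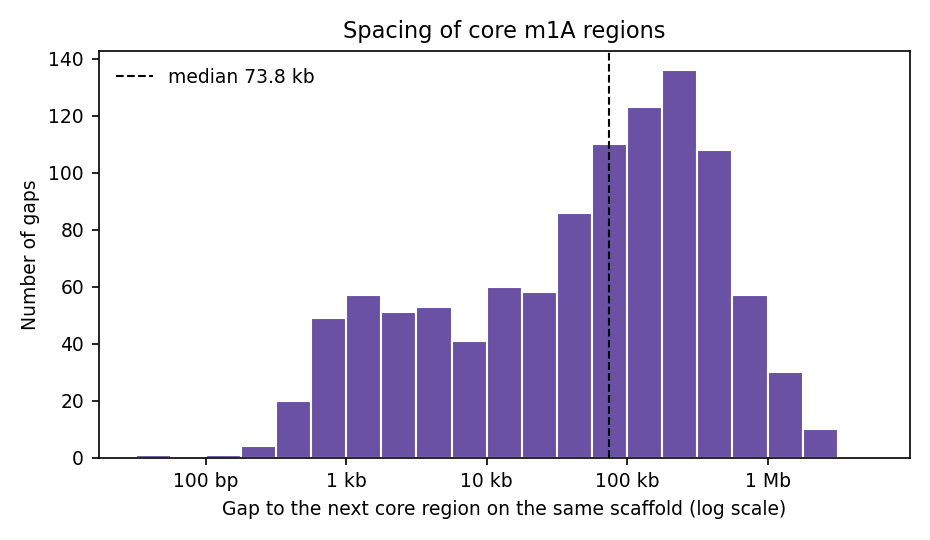
Number of gaps (vertical axis) between neighbouring core regions of a scaffold by gap length (horizontal axis, log scale), with the median of 73.8 kb marked. The 226 gaps of at most 5 kb form the left side of the plot, and most gaps lie to the right of it.

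Other m1A regions lay close to the core about as often as to any region. Another region lay within 1 kb of 954 core regions (57.3%), against 59.0% of all regions, and within 5 kb of 1490 (89.5%), against 88.9%. At 300 bp or less a neighbour was found for 16.1% of core regions and 23.2% of regions outside the core. The median distance to the nearest region was 831 bp for the core, 758 bp outside it and 1475 bp for the 60 regions of all 6 libraries. A wide core region absorbs peaks that would otherwise be near neighbours, and what part of these shares this gives was not tested.

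The nearest neighbour of a core region was itself core in 195 cases (11.8%), against 4.25% of all regions. Outside the core that share was 3.89%. A single-library region was nearest to 50.3% of core regions and 67.2% of the others, and 5 core regions had no other region on their scaffold. Neighbour relations are mutual and presence chose the core, so these shares carry no test.

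Neighbourhood was tested with held-out lists. A peak of the held-out library outside the region and within 1 kb was counted, whether or not that library had one inside. Such a peak was found at 18.7, 4.91 and 21.0% of recurrent regions for ethylene 1, 2 and 3, and at 29.8, 29.7 and 19.3% for air 1, 2 and 3. Around single-library regions the shares were 14.6, 1.87 and 15.9% for ethylene 1, 2 and 3, and 29.0, 32.8 and 13.2% for air 1, 2 and 3. The mean difference was 2.66 percentage points, higher in 5 of 6 libraries and lower in air 2 (exact two-sided sign-flip permutation, p = 0.13, adjusted p 0.275). It depended on the window, with −2.05 points at 300 bp and 9.66 points at 5 kb.

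The widths of merged core regions were often multiples of 3. Merged width was divisible by 3 in 703 core regions (42.2%), against 37.5% of all regions, and left a remainder of 1 in 28.2% and of 2 in 29.6%. Single peaks in the 6 lists were divisible by 3 in 34.3 to 37.3% of cases. In held-out lists the share was 35.0, 37.7 and 34.9% at recurrent regions in ethylene 1, 2 and 3, and 36.6, 38.1 and 34.5% in air 1, 2 and 3. For other peaks it was 37.5, 33.6 and 36.0% in ethylene and 37.0, 36.3 and 36.5% in air. The difference was −0.00109 percentage points (exact two-sided sign-flip permutation, p = 1, adjusted p 1), so the higher share of merged core regions was not seen in single peaks of held-out lists.

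Few core regions coincided with peaks of the m6A-titled lists. The midpoint lay in a peak of at least 1 of the 4 lists for 81 core regions (4.87%), against 4.11% of all regions, and in a peak of all 4 for 20 (1.20%), against 0.877%. By list, the share was 3.13 and 2.64% of core regions in ethylene 1 and 2, and 2.58 and 2.28% in air 1 and 2. Regions outside the core reached 2.28 and 1.89% in ethylene 1 and 2, and 2.17 and 2.03% in air 1 and 2. The core was higher in 4 of 4 lists, by a mean of 0.565 percentage points (exact two-sided sign-flip permutation, p = 0.13, the smallest that 4 lists allow, adjusted p 0.275).

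Where m1A and m6A-titled peaks overlapped, identical starts made up a larger share in the core in 4 of 4 lists, too few for the test to pass. The start was identical for 57.3 and 53.2% of overlapping pairs of peaks in ethylene 1 and 2, and for 61.5 and 63.6% in air 1 and 2, when the m1A peak lay in a core region. For m1A peaks elsewhere it was 48.0 and 48.5% in ethylene 1 and 2, and 46.3 and 49.2% in air 1 and 2. All 4 core values lay above all 4 values elsewhere, with a mean difference of 10.9 percentage points (exact two-sided sign-flip permutation, p = 0.13, adjusted p 0.275). Ends differed less, with a mean of 49.5% (46.3 to 53.8%) identical in the core and 46.0% (43.9 to 48.2%) elsewhere, and the ranges overlapped. Both edges were identical in a mean of 30.0% of pairs in the core and 18.2% elsewhere. Core pairs numbered 173 to 232 per list and share regions, since 1 m6A-titled peak can pair with several m1A libraries, and the same antibody is named for both kinds of list.

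The widest core regions under peaks of all 4 m6A-titled lists were Peaxi162Scf00166 1055923 to 1056981 (1059 bp), Peaxi162Scf00045 494695 to 495666 (972 bp), Peaxi162Scf00950 340898 to 341767 (870 bp), Peaxi162Scf00751 430855 to 431517 (663 bp) and Peaxi162Scf00546 32756 to 33367 (612 bp). None of these 5 had an m1A peak of ethylene 2, which was absent from 82.6% of all core regions. On Peaxi162Scf00045 all 5 m1A libraries began at the same base, with widths of 876 and 972 bp in ethylene 1 and 3, and 885, 863 and 184 bp in air 1, 2 and 3. On Peaxi162Scf00546 the 4 m1A libraries covered 522 bp in common, or 85.3% of the region, while their scores were 3100 and 812.71 in ethylene 1 and 3, and 829.35 and 114.58 in air 1 and 2.

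Values just inside and just outside the limit of 4 libraries were close for some measures and apart for others. Regions of 4 and of 3 libraries had median widths of 338 and 261 bp, more than 1 peak of a library in 7.43 and 2.72%, and no base common to all libraries in 13.6 and 7.47%. Every library stood at 3100 in 8.64 and 12.2%, and none in 5.96 and 15.5%, and the nearest region was core in 9.94 and 7.18%. Both edges were identical in 11.8 and 10.9%, the midpoint lay in an m6A-titled peak in 4.58% of both, and the nearest region was 779 and 786 bp away at the median.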

How the data were processed

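Each of the 10 deposited files is a list of peaks of 1 library with scaffold, start, end, peak name and a score. The score is a deposited value of the authors' peak caller on a scale not given in the sources used here, between 100 and 3233.06 in the m1A lists. Per the submitters' processing notes, the tools were MACS 1.4.2, STAR 2.5.1b, cutadapt 1.9.3 and CASAVA 1.4, with roles and settings not given. The same notes name human and mouse builds, while the files use Peaxi162 scaffolds, so the build is not established. Peaks are listed per library, and whether input libraries entered the calling is not given. The peak numbers skip, so each list was filtered by the authors in a way not given. Files hold no read counts, so no interval that needs depth is given.

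Groups follow the labels. The members and lists were chosen with earlier results of these data known. Peaks were merged at 1 bp of overlap (Python 3.11.15, pandas 2.3.3, numpy 2.4.6), a step checked against bedtools 2.31.1 on the deposited m1A lists. A percentile is the rank of a score within its list, ties averaged, and a region takes the highest-scoring peak of a library. Held-out tests merged 5 libraries and asked for 4 or more of them. Where 1 m1A library was left out altogether, they asked for 3 or more of the remaining lists. Differences over libraries were tested with exact two-sided sign-flip permutations (core against other) or exact permutations of library labels (ethylene against air), with a threshold of 0.05 and Benjamini-Hochberg adjustment over 11 tests. Of these, the tests of widths divisible by 3, of covered bases and of identical m6A-titled starts were added after the data were seen. Regions were named by rule: the 8 of all 6 libraries with most shared bases, the 5 with least edge difference, the 5 core regions with most peaks, the 4 of all 6 libraries with lowest mean percentile, the 3 scaffolds with most core regions, and up to 5 core regions under all 4 m6A-titled lists. The groups of 4 neighbouring regions were named after their values were seen. No 2 m1A lists repeated each other. Sequences and genes of the regions were not analysed here.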

Additional observations from a re-analysis of the deposited data

How the results depend on the processing

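Over 125 alternative settings of 12 results, 79 kept direction and side of the 0.05 threshold (unadjusted exact p) or a close value, and 23 changed direction. The core held 366 regions when only peaks at or above their list's median score were used, 4678 at 3 or more libraries, 506 at 5 or more, and 600 to 1529 with 1 library left out. Fewer libraries or peaks enter by construction. With 1 m1A library left out, the held-out results asked for 3 or more of the remaining lists, so their rule differed from the main one. Held-out detection and peak width kept their direction under each alternative run; with 1 library left out they were 32.2 to 34.7 percentage points and 114 to 119.5 bp, with an exact permutation p of 0.0625, the smallest that 5 libraries allow. The score percentile difference was 0 with the score filter, −0.226 at 3 or more libraries, 9.43 at 5, 3.20 as a mean percentile (exact permutation p = 0.03125) and −0.334 to 5.72 with 1 library left out, below 0 without ethylene 2 or air 1. The flank difference was −0.877 points with the score filter, 3.11 at 3 or more libraries (exact permutation p = 0.03125), −2.27 at 5 libraries, −2.05 at 300 bp and 9.66 at 5 kb (exact permutation p = 0.03125). The difference in widths divisible by 3 was 0.669 points with gaps under 100 bp merged, 2.66 with the score filter, 1.61 at 3 or more libraries, −3.53 at 5 and 0.663 to 1.4 with 1 library left out. Between ethylene and air, peaks per region differed by 0.00968 with the score filter, 0.00293 at 5 or more libraries and −0.0125 to 0.0187 with 1 library left out, and the score percentile by −10.5 to 2.67, above 0 only without ethylene 1. The cause of these changes was not tested. Ranges with 1 library left out were −35.6 to −14.1 points for the treatment difference in detection, −110 to −30.4 bp for covered length, 0.471 to 0.882 points for m6A-titled midpoints and 9.46 to 12.9 points for identical starts.

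Replicate numbers were not treated as pairs, because the deviations of same-numbered libraries correlated at −0.0200, 0.0281 and 0.0288. With the replicate block, over 3 pairs and a smallest possible p of 0.25, detection differed by −27.7 points (exact p = 0.5), the score percentile by −2.65 (exact p = 0.5), peaks per region by −0.00286 (exact p = 1) and covered length by −80 bp (exact p = 0.5). Unknown depth limits each comparison of treatments, and the short ethylene 2 list limits how many regions can reach 6 libraries.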
